A study of Rattus norvegicus with 23 samples.

Results

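Among 7 rat livers exposed to lipopolysaccharide (LPS, a bacterial cell wall component), 3 carried the circadian clock in a different state from the other 4, and the 2 sets are compared here across all genes. The split was read from the libraries themselves, and the members were chosen by the measured counts of 2 genes. A library counted as late-clock where its raw count of Dbp exceeded that of Arntl, which held for LPS 5, LPS 6 and LPS 7, and as early-clock where Dbp was below Arntl, which held for LPS 1, LPS 2, LPS 3 and LPS 4. These 7 libraries belong to a series of 23, with 10 livers labelled Selfox and 6 Control livers. The names late and early stand only for this order of 2 genes, because the labels used here give no hour of collection.

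All livers came from Sprague Dawley rats, and sequencing of polyadenylated RNA was the assay. The LPS rats, in both the late and the early set, received LPS at 1 mg/kg 2 times a week for 8 weeks through a surgically placed portal vein catheter. The Selfox rats ate a selenium diet for 8 weeks and had 8 weekly injections into a vein that combined 3 mg/kg oxaliplatin, 25 mg/kg 5-fluorouracil (5-FU) and 45 mg/kg folinic acid. The Control rats were untreated. Nothing in the labels says that the libraries of a group are different rats, so p-values measure only the spread between these libraries. Sex and age are not given either. The late libraries carry the 3 highest LPS numbers, so the clock split and anything else that goes with that order cannot be told apart.

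The molecular clock is a feedback loop that runs in nearly every cell. BMAL1 (encoded by Arntl) pairs with CLOCK or NPAS2, binds E-box sequences and drives the Per, Cry and Nr1d genes and Dbp. PER and CRY proteins inhibit that pair, the NR1D proteins repress Arntl and Npas2 through ROR elements, and DBP, TEF and HLF activate D-box genes that NFIL3 represses. In rodent liver Dbp and Arntl peak at nearly opposite times of the day, and the loop times sterol, bile acid, sugar and drug metabolism.

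The sequences through which the loop acts stand just before several of these genes. Shown are 110-base windows ahead of the gene start from RefSeq (GRCr8), in lower case with the motif in capitals, because they carry 1 example of each motif among clock genes, and, in Bri3, an E-box ahead of a gene outside the loop that followed the split. The Arntl window (chr1:176766218-176766327, plus strand) holds 1 ROR element, the Ciart window (chr2:186112255-186112364, minus strand) holds 3 E-boxes, the Per2 window (chr9:99497101-99497210, minus strand) holds 1 D-box and the Bri3 window (chr12:15463366-15463475, minus strand) holds 1 E-box. Bri3 has 2 start sites, and only the one shown has an E-box ahead of it. Bri3 was higher in late livers, while Lonrf3 and Fam167b, which also followed the split and held an E-box, were lower.
Arntl: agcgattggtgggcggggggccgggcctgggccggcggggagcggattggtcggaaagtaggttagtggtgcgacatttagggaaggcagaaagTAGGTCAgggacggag
Ciart: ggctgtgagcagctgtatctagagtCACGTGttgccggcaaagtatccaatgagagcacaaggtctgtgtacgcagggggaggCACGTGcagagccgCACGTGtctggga
Per2: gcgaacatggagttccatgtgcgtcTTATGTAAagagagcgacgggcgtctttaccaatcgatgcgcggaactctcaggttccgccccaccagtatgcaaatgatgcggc
Bri3: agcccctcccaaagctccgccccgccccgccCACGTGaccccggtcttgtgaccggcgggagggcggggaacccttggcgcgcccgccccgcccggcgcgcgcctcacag
The motifs were searched on both strands as CACGTG (E-box), TTATGTAA (D-box) and TAGGTCA (ROR element) in the 250 bases before the start. Of 33469 rat promoters, 5.59% held an E-box, 0.828% a D-box and 2.26% a ROR element. Of the 19 core clock genes 16 had a promoter in the RefSeq table, and 5 of these held an E-box, 1 a D-box and 1 a ROR element. A gene counted if any of its start sites had a match, while the percentages count single promoters. A match describes letters in a window and not a site in use.

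Dbp and Arntl chose the libraries, and the other core clock genes move with them, so their values are given as a description with no test. Levels are in CPM (a gene's count scaled by the library total, adjusted by a normalization factor per library), which is not comparable between genes of different length. Dbp had 39.1, 93.7 and 15.7 CPM in late LPS 5, 6 and 7, against 1.27, 1.78, 0.978 and 2.03 CPM in early LPS 1, 2, 3 and 4. Arntl had 8.30, 1.42 and 9.95 CPM in the late libraries, in that order, against 35.4, 35.2, 36.2 and 39.0 CPM in the early ones. LPS 6 stood at the far end of both genes and LPS 7 nearest to the early livers. Nearest to the threshold inside the late set was LPS 7, with 1265 Dbp and 799 Arntl counts, and nearest on the early side was LPS 4, with 159 Dbp and 3052 Arntl counts. On the log2 CPM scale Dbp minus Arntl was 0.66 in LPS 7, close to equality, 2.23 in LPS 5 and 6.02 in LPS 6, against −5.17 to −4.24 in the early libraries.

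Per3 and Ciart were high in late livers, as Dbp was. Per3, a period gene, had 24.0, 76.5 and 13.1 CPM in late livers, against 1.01, 1.69, 1.34 and 2.39 CPM in early livers. Ciart, a repressor of the BMAL1 pair, had 3.89, 16.2 and 1.90 CPM in late livers, against 0.566, 0.193, 0.138 and 0.102 CPM in early livers. As with Dbp, LPS 6 was highest and LPS 7 lowest of the late 3, and no late value met an early one. The log2 fold changes, late minus early, were 4.55 ± 0.65 for Per3 and 4.87 ± 0.90 for Ciart (± SE of the fit). For Dbp, which chose the libraries, the change was 5.03, given without SE.

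The repressors Nr1d1 and Nr1d2 were higher too. Nr1d1 had 31.5, 37.7 and 20.0 CPM in late livers, against 4.39, 6.36, 4.16 and 13.5 CPM in early livers, where LPS 4 came nearest. Nr1d2 had 106, 144 and 87.5 CPM in late livers, against 36.1, 35.8, 34.3 and 44.8 CPM in early livers. Per2, the other period gene with a large difference, had 22.3, 40.2 and 14.1 CPM in late livers, against 5.83, 6.80, 7.36 and 10.2 CPM in early livers. The D-box activators Tef and Hlf had log2 fold changes of 1.60 ± 0.19 and 0.73 ± 0.13, Cry2 had 1.10 ± 0.16, and Per1 had 0.35 ± 0.12.

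The opposite arm was low in late livers. Npas2, which can stand in for CLOCK, had 6.23, 0.786 and 9.39 CPM in late livers, against 31.4, 33.5, 31.3 and 21.7 CPM in early livers. Nfil3, the D-box repressor, had 41.3, 37.3 and 65.6 CPM in late livers, against 129, 110, 112 and 86.9 CPM in early livers. Clock itself was at −0.57 ± 0.18 on the log2 scale. Its partner Arntl, which chose the libraries, was at −2.48, given without SE. Rora, an activator of Arntl, was at −1.08 ± 0.12 and Cry1 at −0.93 ± 0.31. Of the 19 core genes, 10 had every late value above every early value, 6 had every late value below, and the rest, Bhlhe40 and Bhlhe41 among them, overlapped. Without Dbp and Arntl, which made the sets, these counts were 9 and 5 of 17. Of all genes tested outside the core clock, 7.67% had all late values above all early ones and 6.85% all below, and nothing is read from the difference, since the split was made on the clock.

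**Figure D1:**
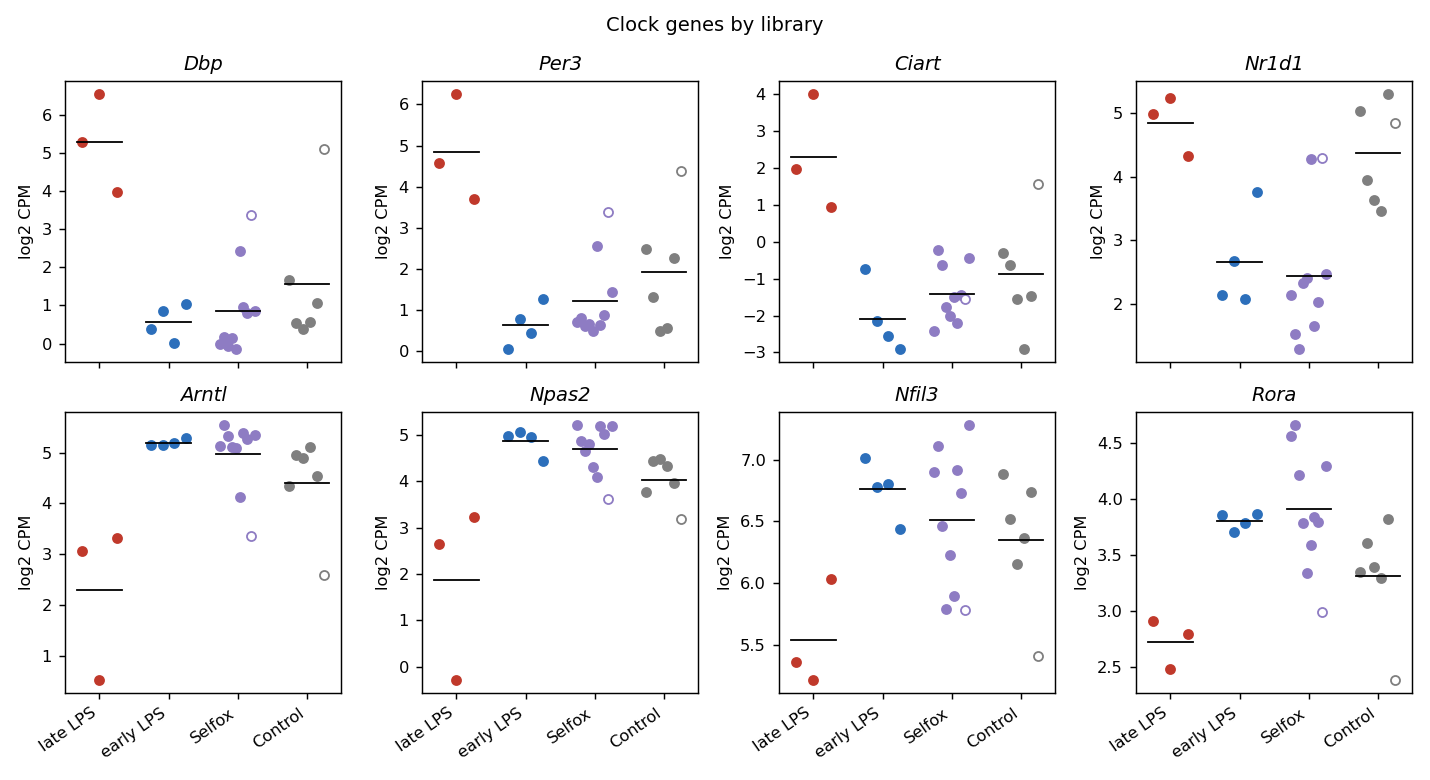
Level (log2 CPM, vertical axis) of 8 clock genes in each library (points) of late LPS (3), early LPS (4), Selfox (10) and Control (6), with black lines at group means; open points are Control 55 and Selfox 8, the only libraries outside LPS with more Dbp than Arntl counts. The 3 late LPS libraries stand apart from the 4 early ones in every panel, and Control 55 stands on the late side of the other 5 Control libraries in Dbp, Per3, Ciart, Arntl, Npas2, Nfil3 and Rora.

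Outside LPS the same rule found 1 Control library, Control 55, and 1 Selfox library, Selfox 8. Control 55 had 34.2 CPM of Dbp, against 1.28 to 3.15 CPM in the other 5 Control libraries, and 6.01 CPM of Arntl, against 20.4 to 34.6 CPM. Its Per3 was 20.9 CPM, against 1.38 to 5.56 CPM, and its Ciart 2.93 CPM, against 0.102 to 0.777 CPM. In all 4 genes Control 55 lay within the range of the late LPS livers. Selfox 8 lay between, with 10.3 CPM of Dbp, against 0.875 to 5.35 CPM in the other 9 Selfox libraries, and 10.3 CPM of Arntl, against 17.4 to 46.6 CPM.

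Depth and the shares of the main transcripts overlapped between the 2 sets. Totals were 74.0 ± 3.32 M counts in late livers and 76.9 ± 1.93 M in early livers (SD, n = 3 and 4), with an exact two-sided permutation p of 0.229, where 35 splits allow no p below 0.0571. Albumin, the main hepatocyte transcript, took 9.76% ± 2.60 of late counts and 11.7% ± 1.27 of early counts (SD, n = 3 and 4; exact permutation p 0.286), and mitochondrial genes took 5.46% ± 0.504 and 5.27% ± 0.412 in late and early livers (exact permutation p 0.514). LPS 7 had an albumin share of 6.76%, below every early library (9.95 to 12.8%), while LPS 5 and LPS 6 had 11.3% and 11.2%. Control libraries held 31.9 to 53.8 M counts, fewer than any LPS library. Y-linked genes summed to 70.9 to 95.4 CPM in late, 66.3 to 86.7 CPM in early, 69.3 to 84.1 CPM in Selfox and 62.5 to 82.3 CPM in Control livers. On the leading principal component of the LPS libraries, with 29.7% of the variance over 2000 genes, LPS 4 fell on the side of the late livers, with 8.67 against 13.7, 29.4 and 15.2 in the late libraries and −24.6, −22.7 and −19.6 in the other early ones.

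Outside the core clock, a small number of genes followed the split. In late livers the steroid dehydrogenase gene Hsd17b2 was higher by 11.9-fold and the bile acid enzyme gene Cyp8b1 by 2.67-fold, while the glutathione transferase gene Gstt3 was lower by 5.27-fold and the tubulin gene Tubb2a by 4.02-fold. Of 14766 genes tested without the core clock genes, 41 passed an adjusted p of 0.05 in edgeR's quasi-likelihood test with Benjamini-Hochberg adjustment on the 7 libraries, which is 0.278% of them. Of these, 26 (0.176%) were higher and 15 (0.102%) lower in late livers, 19 of them by at least 2-fold, and 2201 genes had an unadjusted p under 0.05. The median log2 fold change of all genes was 0.012. Such a call says that a gene follows a split made from the same libraries, not that an independent test found it. The number rests on single libraries: without LPS 1 or without LPS 2 no gene passed (1607 and 1712 at an unadjusted p under 0.05), without LPS 3 1 did, without LPS 5 22, without LPS 4 69 and without LPS 6 142. DESeq2 called 577. All 41 genes kept their direction in each of these fits.

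The largest rise was in Hsd17b2, whose enzyme inactivates estradiol and testosterone by oxidation. It had 498, 969 and 283 CPM in late livers, against 59.0, 56.8, 37.5 and 42.1 CPM in early livers (log2 fold change 3.57 ± 0.41, edgeR adjusted p 0.0337). The order LPS 6, LPS 5, LPS 7 is that of Dbp, and even the lowest late library lay far above every early one. Cyp8b1, the sterol 12-alpha-hydroxylase needed for cholic acid, had 420, 320 and 289 CPM in late livers, against 158, 128, 93.1 and 133 CPM in early livers (1.42 ± 0.19, edgeR adjusted p 0.0362). The other 17 tested members of the bile acid list did not pass. Among them Cyp7a1, the rate-limiting enzyme of bile acid synthesis, had 525, 862 and 717 CPM in late livers, against 315, 305, 539 and 652 CPM in early livers, and the sets overlapped (0.63 ± 0.30, edgeR adjusted p 0.371).

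Hsd17b7, an enzyme of cholesterol synthesis, had 65.3, 43.6 and 43.9 CPM in late livers, against 18.0, 19.6, 22.0 and 21.4 CPM in early livers (1.32 ± 0.15, edgeR adjusted p 0.0181). Brca1, which acts in repair of DNA breaks, had 6.49, 7.22 and 7.0 CPM in late livers, against 3.08, 2.96, 2.95 and 2.45 CPM in early livers (1.27 ± 0.13, edgeR adjusted p 0.0181). Brca1 varied little within each set, whereas Hsd17b7 in late LPS 5 stood well above the other 2 late libraries. Slc25a10, the mitochondrial dicarboxylate carrier, had 184, 164 and 152 CPM in late livers, against 91.2, 91.0, 85.8 and 102 CPM in early livers (0.85 ± 0.10, edgeR adjusted p 0.0194).

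The other named rises lay between 0.70 and 1.24 on the log2 scale. Tns2, a tensin of focal adhesions, had 52.9, 55.7 and 53.2 CPM in late livers, against 30.4, 32.6, 25.0 and 28.3 CPM in early livers (0.89 ± 0.10, edgeR adjusted p 0.0181). Sorbs3, the adhesion adaptor vinexin, rose by 1.07 ± 0.15 and Plxnb1, a semaphorin receptor, by 0.80 ± 0.11 (log2). Fam20c, the kinase of secreted proteins in the Golgi, rose by 1.05 ± 0.16, and Slc35d2, a Golgi transporter of nucleotide sugars, by 0.85 ± 0.13. The last named rises were Sdr42e1, a short-chain dehydrogenase, at 1.15 ± 0.13, Rnd2, a small GTPase, at 0.78 ± 0.12, and Tfcp2, a transcription factor, at 0.70 ± 0.11. Each of these genes had all 3 late values above all 4 early values.

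Usp18, an interferon-induced protease that removes ISG15, had 13.5, 7.32 and 11.5 CPM in late livers, against 4.27, 4.38, 5.26 and 4.27 CPM in early livers (1.24 ± 0.20, edgeR adjusted p 0.0483). It was higher still in the other Control livers, at 16 to 36 CPM, and in Control 55, at 26.3 CPM. It was the only one of 38 tested interferon-stimulated genes past the threshold, and their median log2 fold change was 0.10.

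Among the falls, Gstt3, a theta-class glutathione transferase, had 19.0, 28.3 and 20.5 CPM in late livers, against 163, 138, 65.0 and 109 CPM in early livers (−2.40 ± 0.32, edgeR adjusted p 0.0419). Tubb2a, a beta-tubulin, had 3.79, 1.84 and 4.72 CPM in late livers, against 13.0, 12.9, 16.5 and 12.9 CPM in early livers (−2.01 ± 0.29, edgeR adjusted p 0.0446). Neither gene overlapped between the sets, although reads of genes with close relatives, as these have, may be shared by the counting. Pgk1, the glycolytic phosphoglycerate kinase, had 143, 141 and 146 CPM in late livers, against 226, 213, 221 and 206 CPM in early livers (−0.60 ± 0.09, edgeR adjusted p 0.0381).

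Pkdcc, a secreted tyrosine kinase, had 36.2, 31.5 and 26.9 CPM in late livers, against 67.1, 68.9, 83.5 and 65.7 CPM in early livers (−1.18 ± 0.13, edgeR adjusted p 0.0181). Pnrc1, a coactivator of nuclear receptors, had 26.4, 22.8 and 22.7 CPM in late livers, against 47.3, 44.6, 46.8 and 53.2 CPM in early livers (−1.0 ± 0.10, edgeR adjusted p 0.0181). Both were near to 2-fold lower with little spread. The other named falls were Ggct, an enzyme of glutathione breakdown, at −0.64 ± 0.09, Ctr9, a subunit of the PAF1 complex of transcription elongation, at −0.56 ± 0.09, Serpinb6a, a protease inhibitor, at −0.69 ± 0.11, Slc45a3, a membrane transporter, at −1.49 ± 0.20, and Fam167b at −0.85 ± 0.12. Msr1 and Adgrl4, which complete the named falls, are described with their cell types.

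**Figure D2:**
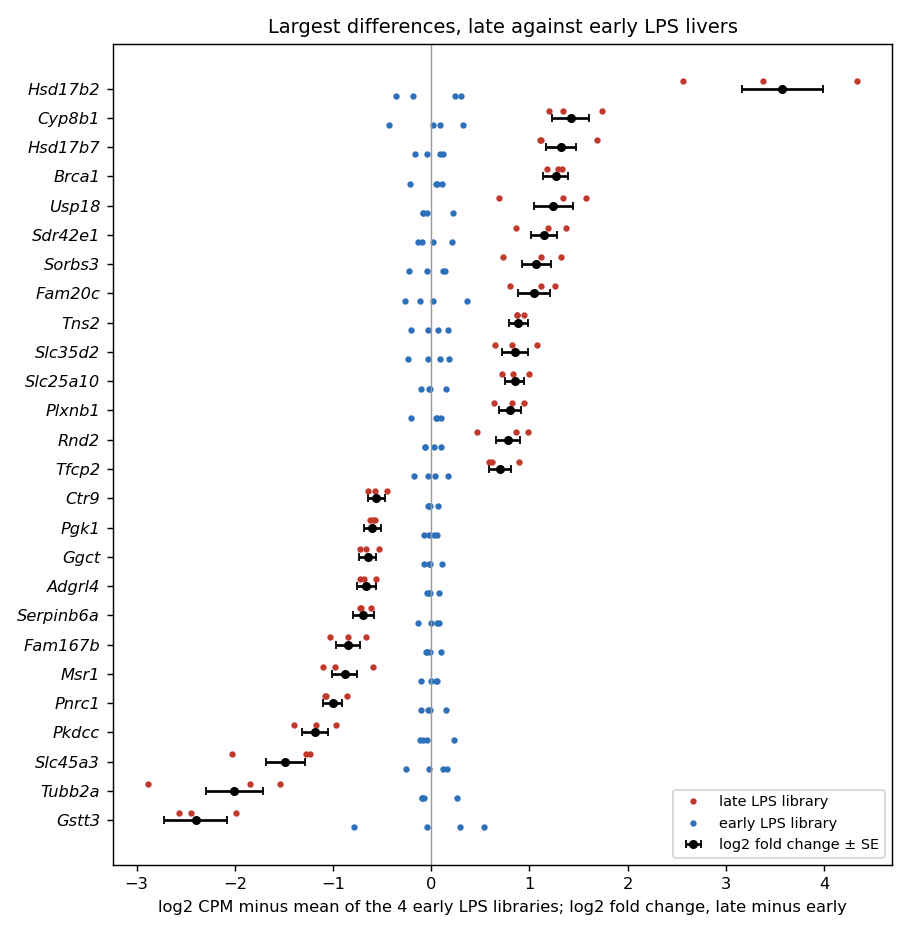
The largest rises (15 by rule, of which 1 is not drawn) and the 12 largest falls past the threshold, excluding core clock genes: black points and bars are log2 fold changes, late minus early, ± SE, and small points are the 3 late and 4 early LPS libraries, as log2 CPM minus the mean of the early libraries. All 3 late libraries lie beyond all 4 early ones in each gene drawn, and Hsd17b2 has the widest spread among late libraries of the rises.

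Endothelial markers had lower values in late livers, a difference that passed the threshold for 7 of 20 when all 23 libraries were fitted and for none with the 7 LPS libraries alone. Of the 20 tested sinusoidal and vascular endothelial markers, 10 had every late value below every early value and none had every late value above. Over all genes these shares were 6.85% below and 7.67% above. The list's median log2 fold change was −0.56, beside 0.012 for all genes. Summed, the list came to 314 to 458 CPM in late livers and 469 to 585 CPM in early livers. The sums were 515 to 651 CPM in Selfox and 514 to 599 CPM in Control livers, so by sum the late livers alone lay below the rest. By the list's median log2 difference from the early mean, LPS 5 and LPS 6 stood apart, at −0.586 and −0.786. LPS 7, at −0.214, lay beside early LPS 3, at −0.208, and Selfox 5, at −0.199. In the 7-library edgeR fit 12 of the 20 had an unadjusted p under 0.05, all lower, beside 2201 of 14766 genes in either direction. In the fit of all 23 libraries, whose late against early contrast called 91 of 15616 genes (0.583%; 35 or 0.224% higher and 56 or 0.359% lower), 7 passed, all lower. In bulk liver, fewer endothelial cells and less RNA per cell cannot be told apart.

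Stab2, a scavenger receptor that clears hyaluronan in sinusoids, had 24.3, 20.2 and 33.1 CPM in late livers, against 49, 54, 46.4 and 62.5 CPM in early livers (−1.04 ± 0.17; edgeR adjusted p 0.0546 with 7 libraries and 0.0208 with 23). Lyve1, a hyaluronan receptor of the sinusoidal wall, had 38.9, 36.4 and 51.9 CPM in late livers, against 72.1, 73.0, 62.5 and 59.1 CPM in early livers (−0.66 ± 0.14; edgeR adjusted p 0.102 with 7 libraries and 0.00654 with 23). Fcgr2b, the inhibitory Fc receptor, had 56.9, 59.0 and 92.5 CPM in late livers, against 112, 112, 99.3 and 111 CPM in early livers (−0.65 ± 0.17; edgeR adjusted p 0.149 and 0.0139 with 7 and 23 libraries). In all 3 genes LPS 7 was the late library closest to the early ones. Wnt2, the Wnt ligand that central-vein and sinusoidal endothelium gives to hepatocytes, had 0.616, 0.365 and 0.847 CPM in late livers, against 2.50, 1.88, 1.14 and 1.60 CPM in early livers (−1.54 ± 0.35; edgeR adjusted p 0.121 and 0.0217 with 7 and 23 libraries).

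Stab1, Oit3 and Flt1, the last a receptor for VEGF, were the other 3 markers past the threshold with 23 libraries, at edgeR adjusted p of 0.0425, 0.0365 and 0.0282. Kdr, Vwf and Rspo3 overlapped between the sets, and Cdh5, the junction protein of all endothelium, had 16.8, 13.2 and 23.9 CPM in late livers, against 29.4, 28.9, 23.3 and 27.8 CPM in early livers, where LPS 7 met LPS 3. Adgrl4, an endothelial adhesion receptor outside the list, was past the threshold with the 7 libraries, with 6.96, 7.16 and 7.81 CPM in late livers, against 11.2, 11.3, 11.4 and 12.2 CPM in early livers (−0.66 ± 0.09; edgeR adjusted p 0.0381). Its 3 late values lay close together. Without LPS 7, 6 of the 20 list members passed in the fit of the other LPS libraries, beside 54 over all genes (32 lower). DESeq2 with the 7 libraries called 8 of the list, beside 577 over all genes (288 lower).

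Set against Control, with the same 6 Control libraries in both comparisons, late livers had 9 endothelial markers lower and 1 higher, and early livers had 0 lower and 1 higher. Those fits called 1597 of 15616 genes in late livers (10.2%; 5.67% higher and 4.55% lower) and 1566 in early livers (10%; 5.44% higher and 4.59% lower). The list's median log2 difference from Control was −0.52 in late and −0.01 in early livers. Stab2 was at −1.18 ± 0.19 in late livers (edgeR adjusted p 0.000842) and at −0.15 ± 0.17 in early livers (0.637). Without Control 55 the counts of lower endothelial markers were 9 in late and 0 in early livers, beside 2269 and 2000 calls over all genes.

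**Figure D3:**
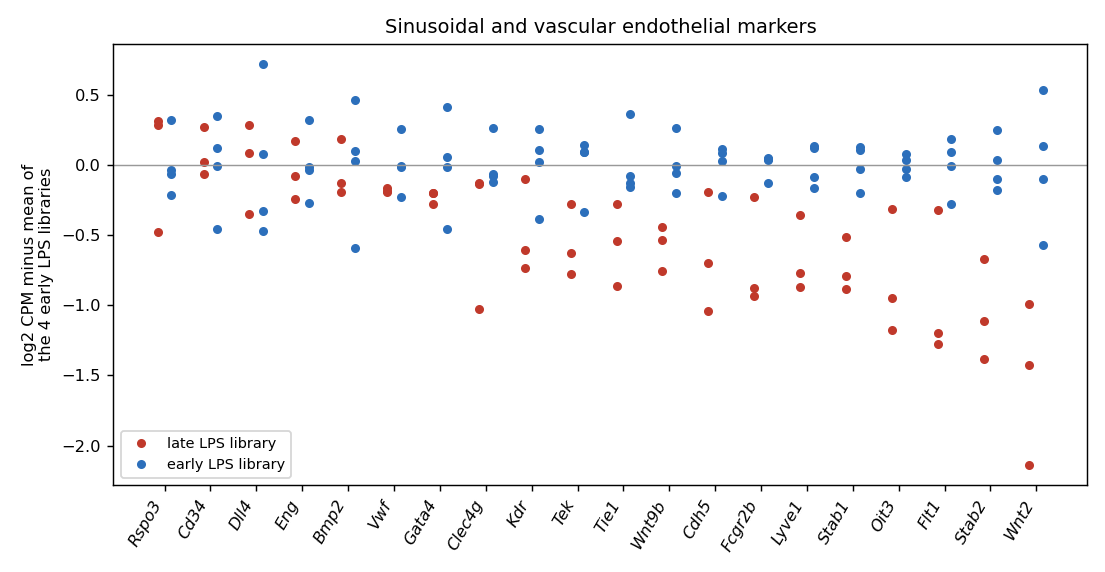
Level of 20 sinusoidal and vascular endothelial markers (horizontal axis) in the 3 late and 4 early LPS libraries (points), as log2 CPM minus the mean of the early libraries. Stab2, Wnt2, Stab1, Lyve1 and Fcgr2b have all late libraries below all early ones, while Kdr, Rspo3 and Vwf overlap.

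Markers of other cell types gave few calls. Of 18 tested Kupffer cell and macrophage markers 1, Msr1, passed, 4 had every late value below every early value and 0 above, and the median log2 fold change was −0.24. Over all genes 6.85% lay below and 7.67% above in this way. At an unadjusted p under 0.05 edgeR gave 5 of the list, all lower, beside 2201 of 14766 genes. DESeq2 called 3, all lower, beside 577 over all genes. Msr1, the macrophage scavenger receptor, which liver endothelium also expresses, had 26.6, 29.1 and 37.8 CPM in late livers, against 59.2, 59.5, 57.2 and 53.3 CPM in early livers (−0.88 ± 0.12; edgeR adjusted p 0.0381, and 0.000929 with 23 libraries). Mrc1, the mannose receptor of the same 2 cell types, passed only with 23 libraries, with 43.1, 55.8 and 79.8 CPM in late livers, against 115, 118, 94.7 and 86.8 CPM in early livers (edgeR adjusted p 0.157 and 0.0275). Among the markers that overlapped between the sets were Marco, Clec4f, Vsig4 and C1qa, which are typical of Kupffer cells, and Clec4f had 152, 126 and 233 CPM in late livers, against 205, 189, 178 and 121 CPM in early livers. The Kupffer list summed to 837 to 1271 CPM in late and 1088 to 1289 CPM in early livers.

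No marker of T and NK cells, B and plasma cells, neutrophils, stellate and smooth muscle cells, cholangiocytes, erythroid cells or carried-over adipose and pancreas passed in edgeR with 7 or with 23 libraries. Per list, 0 to 6 members had an unadjusted p under 0.05 with 7 libraries, and DESeq2 called 0 or 1. Over all genes these counts were 2201 of 14766 and 577. T and NK markers summed to 49.4 to 79.1 CPM in late and 57.2 to 69.8 CPM in early livers. Stellate and smooth muscle markers summed to 581 to 656 CPM in late and 658 to 806 CPM in early livers, the late sums lying below the early ones. Adipose and pancreas markers summed to 19.9 to 21.2 CPM in late and 25.9 to 27.6 CPM in early livers, again without overlap. Neutrophil markers summed to 4.75 to 144 CPM in late and 8.81 to 21.0 CPM in early livers, with a median log2 fold change of −0.59 over 9 genes. Their part in the other results was not tested.

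By the list median, cholesterol genes had higher values in late livers, most of all in LPS 5, with 1 of them past the threshold. Of 25 genes of cholesterol synthesis and uptake, 8 had every late value above every early value and none below. Over all genes these shares were 7.67% above and 6.85% below. The list's median log2 fold change was 0.45, but Hsd17b7 alone passed in edgeR. As a median log2 difference from the early mean, the list was at 0.944 in LPS 5 and 0.416 in LPS 7. LPS 6, at 0.112, lay below early LPS 3, at 0.265. The list sums overlapped, at 5113 to 9118 CPM in late and 4211 to 6978 CPM in early livers. DESeq2 called 8 of the list, beside 577 over all genes. Hmgcs1, which makes the HMG-CoA of the pathway, had 1077, 571 and 716 CPM in late livers, against 309, 315, 432 and 244 CPM in early livers (1.27 ± 0.25; edgeR adjusted p 0.0938). Sqle, squalene epoxidase, had 175, 87.8 and 129 CPM in late livers, against 81.0, 63.1, 74.6 and 42.4 CPM in early livers (1.00 ± 0.28; edgeR adjusted p 0.186). LPS 5 and not LPS 6 was the highest late library in both, unlike the order of Dbp. Against the shared Control libraries, 21 of the 25 were higher in late livers and 7 in early livers, with medians of 1.22 and 0.49. Without Control 55, whose Hmgcs1 was 763 CPM, against 252 to 368 CPM in the other 5, these counts were 21 and 15, so the early count depends on that library. Calls over all genes also rose without it, from 1597 to 2269 in late and from 1566 to 2000 in early livers.

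Ribosomal protein genes had slightly lower values in late livers, with none past the threshold. Of 34 tested, 18 had every late value below every early value and 0 above, with a median log2 fold change of −0.19. Over all genes 6.85% lay below and 7.67% above in this way. At an unadjusted p under 0.05 edgeR gave 15 of the list, all lower, beside 2201 of 14766 genes. DESeq2 called 4, beside 577 over all genes. The ribosomal list summed to 4974 to 5060 CPM in late and 5590 to 5892 CPM in early livers. Against the shared Control libraries 2 were higher in late livers and 21 in early livers, with medians of 0.16 and 0.40. Nuclear genes of oxidative phosphorylation had a median of −0.18, with 9 of 29 below in every late library, and genes of the unfolded protein and integrated stress response also had −0.18, with 6 of 25 below. Not every late library was lower by list median. For oxidative phosphorylation LPS 6, at −0.043, lay above early LPS 3, at −0.054. For the stress response LPS 7, at −0.058, lay above early LPS 2, at −0.077. None of either list passed in edgeR or DESeq2, and 6 and 9 had an unadjusted p under 0.05 in edgeR. The 6 were all lower, and of the 9, 8 were lower and 1 higher.

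**Figure D4:**
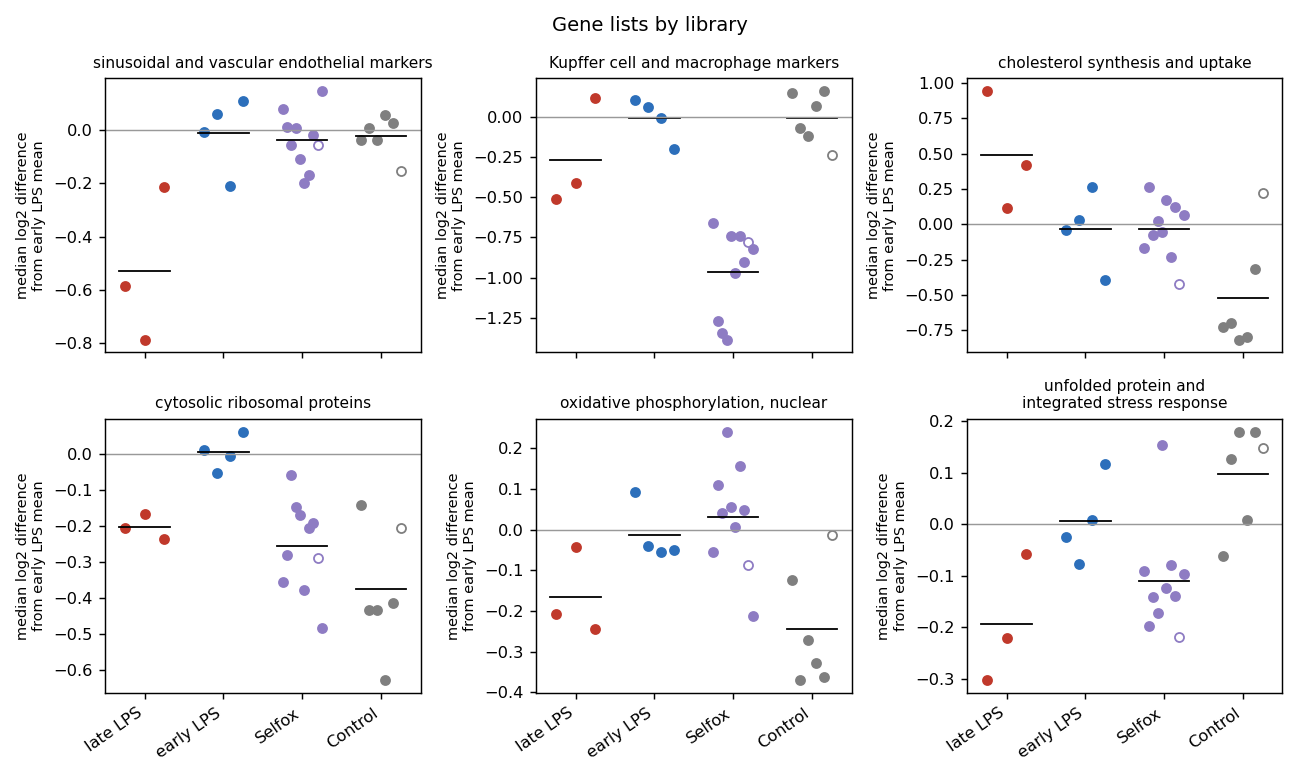
Median over the genes of 6 lists of log2 CPM minus the early LPS mean (vertical axis), in each library (points) of late LPS, early LPS, Selfox and Control, with black lines at group means; open points are Control 55 and Selfox 8. The endothelial medians of LPS 5 and LPS 6 lie below all other libraries, and the ribosomal medians of the 3 late livers lie below those of the 4 early ones. Control 55 has the highest cholesterol median of the Control livers (0.221), whereas Selfox 8 has the lowest of the Selfox livers (−0.426).

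Most other metabolic and immune lists gave no call. Fatty acid oxidation genes had a median of −0.13 with 0 of 28 past the threshold, lipogenesis genes 0.10 with 0 of 23, genes of gluconeogenesis, glycolysis and glycogen −0.04 with 0 of 24, and urea cycle and amino acid genes 0.08 with 0 of 24. In that order 4, 5, 7 and 7 members had an unadjusted p under 0.05 in edgeR, and DESeq2 called 1, 0, 2 and 2. Over all genes these counts were 2201 of 14766 and 577. Acute phase proteins, cytokines, LPS-sensing genes, immediate early genes, heat shock genes, glucocorticoid-responsive genes, drug-metabolising P450 genes, cell cycle genes, growth hormone and sex-biased genes and Y-linked genes had no member past the threshold, with 0 to 7 per list at an unadjusted p under 0.05 and 0 to 2 called by DESeq2. With 23 libraries, Gckr, the glucokinase regulator, passed in the sugar list as lower (edgeR adjusted p 0.0482), and 1 cell cycle gene, Cdkn1a, also passed as lower. For acute phase proteins the median was 0.01 over 24 genes and for LPS sensing −0.01 over 15. A p that missed the threshold with 3 against 4 libraries does not show that these genes were alike.

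Of 24 liver genes known as clock outputs in rodents, Tubb2a alone passed, and their median log2 fold change was 0.00. Members differed in both directions. At an unadjusted p under 0.05 edgeR gave 4 higher and 6 lower, beside 2201 of 14766 genes. DESeq2 called 3 higher and 3 lower, beside 577 over all genes. Every late value lay above every early one for 3 of the 24 and below for 6, beside 7.67% and 6.85% of all genes. With 23 libraries Cdkn1a and Ppard passed as well. Cdkn1a, the cell cycle inhibitor p21, had 17.8, 9.97 and 33.0 CPM in late livers, against 108, 88.7, 88.4 and 77.4 CPM in early livers (−2.17 ± 0.38; edgeR adjusted p 0.0819 with 7 libraries and 0.0403 with 23). Control 55 had 12.6 CPM of Cdkn1a, against 84.0 to 110 CPM in the other 5 Control libraries. Ppard, a fatty acid-sensing nuclear receptor, had 15.5, 8.07 and 20.8 CPM in late livers, against 43.5, 45.8, 40 and 34.3 CPM in early livers (edgeR adjusted p 0.100 and 0.0483). A few further genes, chosen after their values were seen, passed only with 23 libraries. Slc6a6, the taurine transporter, had 10.5, 3.15 and 11.4 CPM in late livers, against 49.5, 54.3, 59.9 and 45.9 CPM in early livers (edgeR adjusted p 0.0631 with 7 libraries and 0.0147 with 23). Chka, choline kinase, had 58.3, 22.4 and 55.2 CPM in late livers, against 534, 576, 261 and 105 CPM in early livers (edgeR adjusted p 0.133 and 0.0261), with a wide spread among the early ones. Clpx, a mitochondrial chaperone, had 167, 87.1 and 153 CPM in late livers, against 371, 317, 345 and 277 CPM in early livers (edgeR adjusted p 0.0671 and 0.00654).

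The libraries that did not make the split give a second reading of the same genes. In the 16 Control and Selfox libraries, a slope was fitted for each gene on the library's log2 difference of Dbp minus Arntl, with the group as a term. Of 14722 genes 10 passed (0.0679%; 6 or 0.0408% positive and 4 or 0.0272% negative), and 1596 had an unadjusted p under 0.05. Of the 41 genes called in LPS livers 40 were tested, and 36 of these (90%) had a slope of the same sign as their late minus early difference. Over all 14459 genes tested in both fits that share was 58.7%, and over the 2173 of them with an unadjusted p under 0.05 in LPS livers it was 71.1%. Hsd17b2 and Bri3 were called in both, which is 4.88% of the 41 and 20% of the 10. Of the 10 genes with a called slope, 9 had the same sign in LPS livers, and Rfk, riboflavin kinase, did not.

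Hsd17b2 rose by 0.52 ± 0.045 log2 units per log2 unit of the clock difference (edgeR adjusted p 1.65e-05). It had 640 CPM in Control 55, against 51.7 to 213 CPM in the other 5 Control libraries, and 309 CPM in Selfox 8, against 23.4 to 140 CPM in the other 9 Selfox libraries. Without the libraries whose Dbp exceeded Arntl, the slope of Hsd17b2 was 0.65 ± 0.076 (edgeR adjusted p 0.00409), and within Selfox alone it was 0.63 (edgeR adjusted p 1.02e-05). In Control alone it was 0.39 and did not pass (edgeR adjusted p 0.0790). Bri3, a small membrane protein gene, had 33.0, 36.2 and 37.6 CPM in late livers, against 22.3, 24.0, 20.3 and 21.3 CPM in early livers (0.69 ± 0.09; edgeR adjusted p 0.0337), and a slope of 0.12 ± 0.017 (edgeR adjusted p 0.00224). Its slope no longer passed without the libraries whose Dbp exceeded Arntl (edgeR adjusted p 0.788) or without Control 55 alone (edgeR adjusted p 0.0552).

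**Figure D5:**
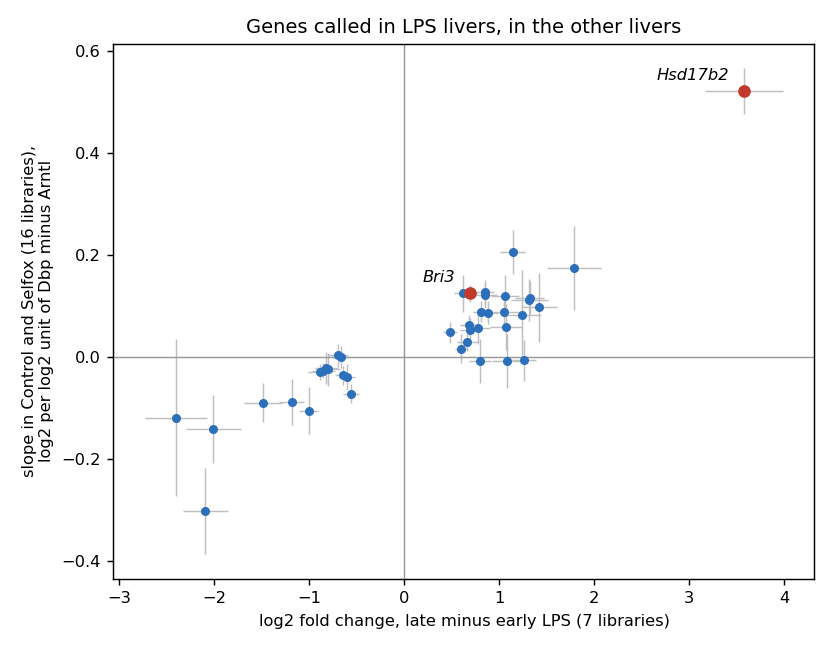
Each point is 1 of the 40 called genes tested in both fits: log2 fold change, late minus early LPS (horizontal axis), against the slope in the 16 Control and Selfox libraries (vertical axis, log2 per log2 unit of Dbp minus Arntl), with bars of ± SE. Genes with slopes past the threshold, Hsd17b2 and Bri3, are red, and 36 of the 40 points lie in the quadrants of equal sign.

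Control 55 alone was also set beside the other 5 Control libraries, a look added after the values were seen and with 1 library, so without a test. Control 55 was part of the slope fit too, with the largest clock difference there, so this look is not separate from the slopes. The share of slopes with the same sign was not recomputed without it. It lay beyond all 5 in the direction of the late minus early difference for 23 of the 41 called genes and beyond them in the opposite direction for 3, while over all 14766 genes these shares were 28.7% and 16.9%. Among the 23 were Hsd17b2, Hsd17b7, Slc25a10, Sdr42e1, Fam20c, Pkdcc and Pnrc1. Hsd17b7 had 33.3 CPM in Control 55, against 12.2 to 17.3 CPM in the other 5, and Pnrc1 had 16.3 CPM, against 32.2 to 47.5 CPM. Brca1, Cyp8b1 and Serpinb6a went the other way: Cyp8b1 had 183 CPM in Control 55, against 251 to 515 CPM in the other 5. Of the 20 endothelial markers 8 lay beyond the other Control libraries in the late direction and 2 in the opposite one. Stab2, at 45.9 CPM in Control 55, was the lowest of the Control livers and still above all late LPS livers, and the endothelial list had no slope past the threshold, with a median slope of −0.035.

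Of the 41 called genes 25 had a promoter in the RefSeq table, of which 3, Lonrf3, Fam167b and Bri3, held an E-box and none a D-box or ROR element in the 250 bases before the start, beside the 5.59%, 0.828% and 2.26% of all promoters. These gene counts take a match at any start site, while the percentages count single promoters, so the measures are not alike. Lonrf3, whose level was too low for the list of named genes and which was picked here for its motif, had 0.699, 0.604 and 0.647 CPM in late livers, against 1.90, 3.00, 2.67 and 3.49 CPM in early livers (−2.09 ± 0.24; edgeR adjusted p 0.0181). No match in Hsd17b2 or Cyp8b1 says only that these letters are not in that window.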

How the data were processed

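The deposited table holds raw read counts per gene in 28913 rows for 23 rat liver libraries. Per the submitters' processing notes, reads were handled with FastQC, Trim Galore, STAR 2.7.9a and featureCounts of Subread 2.0.3, and the library kit keeps strand, per the labels' protocols. Which genome build, annotation and strand option the counting used is not given in the sources used here; overlapping, antisense and near-identical genes are uncertain. Totals were 31.9 to 79.2 M counts.

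The members and all 31 gene lists (660 of 699 listed genes have a row) were chosen with earlier results of these data known. Genes were kept by filterByExpr (minimum count 10), scaled by TMM and tested with edgeR's robust quasi-likelihood F test on the 7 LPS libraries, late against early, with Benjamini-Hochberg adjustment over all genes and a threshold of 0.05. The biological coefficient of variation was 0.206 with 7 libraries and 0.232 with 23. SE was taken as |log2 fold change| over the root of the F statistic. CPM used TMM factors over all 23 libraries, and log2 CPM a prior count of 2. Against Control, all 23 libraries were fitted in 4 groups. The slope was fitted on 16 libraries. Steps were tested on simulated data. The tools were edgeR 4.0.16, DESeq2 1.42.0 and limma 3.58.1, run in R 4.3.3.

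Named genes are the core clock genes, the 15 largest rises and falls called at a mean log2 CPM of at least 1 (12 falls qualified), up to 4 members per list past the threshold or the nearest ones, and genes called in both the first and the slope fit. Rows named by a clone or locus identifier are not named, and a few genes that the rule picks are not reported here. Endothelial, Kupffer, clock output, cholesterol and other genes below the 7-library threshold, and genes of the motif and Control 55 paragraphs, were also chosen after their values were seen.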

Additional observations from a re-analysis of the deposited data

Results flagged for a closer look

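Of 62 groups of 4 to 10 libraries examined, 7 held 1 library far from the others, measured as its gap to the nearest library over the whole range of the group. Chance gives about 1 in 20 for independent groups of normally spread values. The genes examined were core clock genes and genes called in these same libraries, so the 7 cannot be weighed against that rate. In early LPS livers Npas2 had a ratio of 0.839, with LPS 4 at 4.44 log2 CPM and the others at 4.97 to 5.07. Cry2 had 0.843, with LPS 3 at 3.66 and the others at 4.15 to 4.24. Tubb2a had 0.959, with LPS 3 at 4.05 and the others at 3.69 to 3.71. Usp18 had 0.876, with LPS 3 at 2.40 and the others at 2.10 to 2.14. Plxnb1 had 0.853, with LPS 1 at 3.26 and the others at 3.52 to 3.56. In Control livers Dbp had 0.729, with Control 55 at 5.10 and the others at 0.39 to 1.67, and Arntl had 0.697, with Control 55 at 2.60 and the others at 4.35 to 5.11. Dbp and Arntl are the genes of the rule that had already picked out Control 55, so these flags are no separate result.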

How the results depend on the processing

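All 41 genes called late against early kept their sign in every alternative that tested them (40 of 41 were tested at a minimum count of 50). The count of 41 became 39 with RLE factors, 54 with upper-quartile factors, 45 at a minimum count of 50, 80 with no filter, 577 with DESeq2 (289 higher and 288 lower), 72 with limma voom and sample weights, and 91 in the 23-library fit, where 20 of the 41 were called, 48.8% of the 41 and 22.0% of the 91. The share of higher calls was 63.4%, against 50.1% with DESeq2 and 38.5% with 23 libraries. Leaving out 1 library gave 0 to 142 calls, and leaving out LPS 4 and LPS 6 together, chosen after seeing the data, gave 286. Each of the 41 was lost in at least 3 of the 7 such fits, with highest adjusted p from 0.103 to 0.177. The 10 slope calls became 19 at a minimum count of 50, 4 without the libraries whose Dbp exceeded Arntl, 86 in Control alone, 4 in Selfox alone and 201 with DESeq2, and 7 to 44 with 1 library left out. Against Control, leaving out 1 library gave 725 (without LPS 5) to 2269 (without Control 55) calls for late and 809 (without LPS 1) to 2000 (without Control 55) for early livers, with 900 without LPS 2 and 975 without Control 49. The cause of these shifts was not tested. No paired analysis was possible because late, early and Control libraries share no replicate number. With 3 against 4 libraries, genes of moderate change may go uncalled, and Control depth is lower than LPS depth.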
